A study of Homo sapiens with 6 samples.

Results

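Fibrillar collagen genes were examined in the LX-2 line of human hepatic stellate cells after silencing of OGT, whose product modifies proteins with O-linked N-acetylglucosamine. The set comprised the 8 genes COL1A1, COL1A2, COL3A1, COL5A1, COL5A2, COL5A3, COL11A1 and COL27A1, which were looked up by symbol among the 16907 genes of the count files. All 8 were found, and all 8 were among the 14853 genes with a total of at least 10 counts that were tested, although COL11A1 reached that minimum exactly. Both groups were LX-2 cultures kept in the same medium and transfected with small interfering RNA at 20 nM for 72 h. The siControl group received a non-targeting RNA and the siOGT group a pool of RNAs against OGT. Each group had 3 libraries, described by the labels as biological replicates and numbered in pairs from 1 to 3. According to the methods of the study, the non-targeting RNA and the pool came from different makers, so that the silencing of OGT and the reagent cannot be told apart in this design. LX-2 is also 1 established line, so that the 3 pairs are repeats of 1 cell background.

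Fibrillar collagens are secreted as triple helices of alpha chains that are trimmed outside the cell and packed into banded fibrils. Type I collagen is built from the chains of COL1A1 and COL1A2, and type III collagen from the chain of COL3A1 alone. Type V collagen, made of the chains of COL5A1, COL5A2 and, in some tissues, COL5A3, lies inside type I fibrils and controls where they start and how thick they grow. COL11A1 and COL27A1 encode fibrillar chains best known from cartilage. In an injured liver, activated stellate cells are the main source of type I and type III fibrils, which form the scar.

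Sequencing depth was alike between libraries, with 25996770 to 27966801 estimated counts each, and scaling factors were between 0.979 and 1.02. Levels are given in CPM, the counts of a gene relative to all counts of its library after applying the scaling factor. OGT remained at 22.5%, 19.7% and 24.1% relative to its siControl partner. Among 14 markers of stellate cells and myofibroblasts, 10 averaged 1 CPM or more, led by VIM at 3138 CPM, whereas ACTA2 had 7.06 CPM and the retinoid-storage gene LRAT 2 counts in all libraries together. The summed level of these markers was 5185 to 5526 CPM in siControl and 5484 to 6279 CPM in siOGT. Markers of other liver cells were low for hepatocytes (6.40 to 9.24 CPM in siControl and 8.07 to 12.6 CPM in siOGT over the list, ALB with 4 counts in all), endothelial cells (3.93 to 8.37 and 3.52 to 6.39 CPM) and epithelial cells (5.57 to 8.28 and 4.70 to 6.68 CPM). Leukocyte markers summed to 132 to 163 CPM in siControl and 177 to 208 CPM in siOGT, nearly all of it CD68, while the pan-leukocyte gene PTPRC had 85 counts in all. Of the markers, CD68, CYP2E1, SPARC and TAGLN were called higher in siOGT and PDGFRB, THY1 and VWF lower, and their part in the collagen results was not tested.

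The expression of 6 of the 8 fibrillar collagen genes fell after OGT silencing, and that of none rose. In the paired test of edgeR, COL1A1, COL1A2, COL3A1, COL5A1, COL5A2 and COL5A3 were called lower (adjusted p not above 0.05 over all genes tested), with log2 fold changes between -0.83 and -0.32. The number called lower depended on the setting. Without pairing it was 1 in edgeR and 2 in DESeq2, and it was 4 in DESeq2 with pairing. Without replicate 1 it was 3 in edgeR, and under the other alternatives it stayed at 6. None of the 8 genes was called higher by edgeR or DESeq2 under any of the 10 alternative settings. COL11A1 was fitted under 6 of these only, and DESeq2 gave it no adjusted p. COL27A1 did not pass the test, and COL11A1 was too rare to be measured. For comparison, 25.4% of all genes tested were called in either direction and 12.7% were called lower. Of 64 genes that averaged 1000 CPM or more in siControl, COL1A1 among them, 17 were called lower. The median log2 fold change of the 8 genes was -0.48, against 0.0068 over all genes tested. Scaled by library totals alone, these medians were -0.45 and 0.029. Of the 8 genes, the 6 called ones were lower in siOGT in each of the 3 pairs, against 26.6% of all genes tested. These are the same pairs that the paired test used. In cell populations of this kind, fewer collagen-expressing cells and less collagen RNA per cell cannot be told apart.

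**Figure D1:**
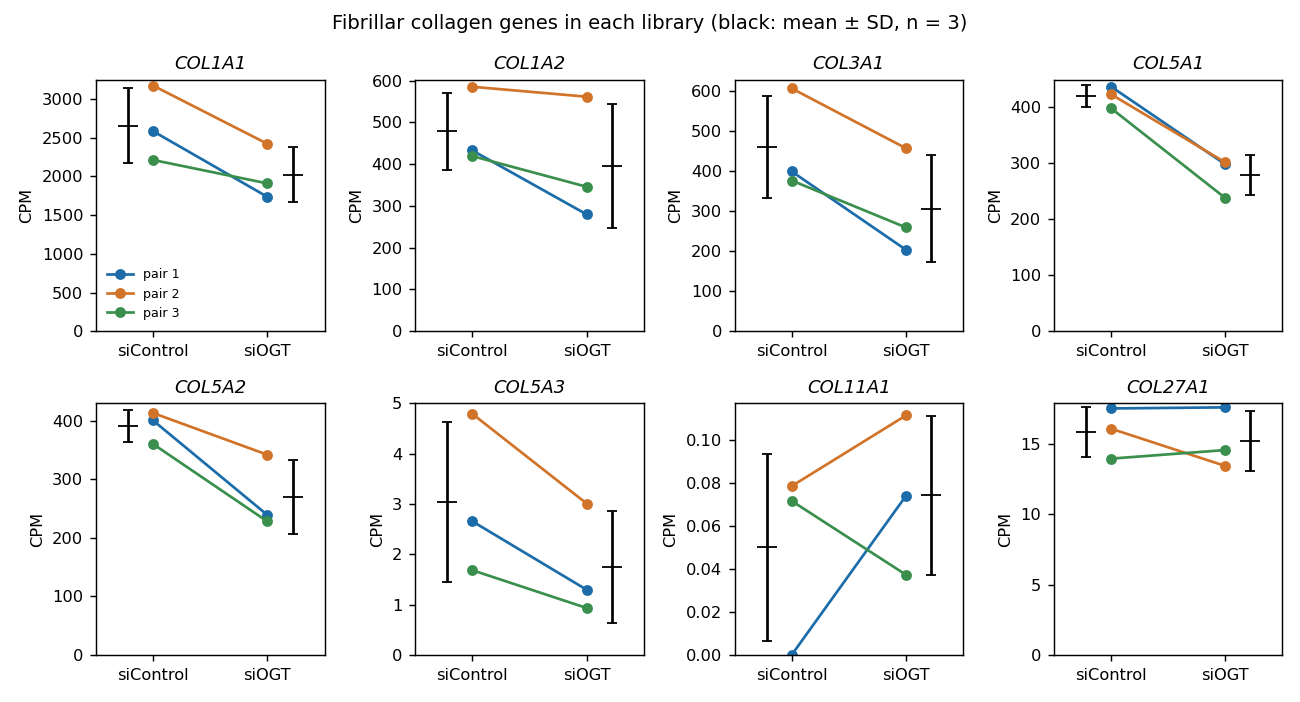
Level of each of the 8 genes in CPM (linear axes starting at 0, a separate scale for each gene) in the siControl and siOGT libraries. Coloured points are libraries, lines join the libraries of a pair, and black bars give the mean and SD of 3 libraries. In siOGT, COL5A1 and COL5A2 lie below every siControl library, whereas the groups overlap for COL1A1, COL1A2 and COL3A1, in which pair 2 is highest in both groups.

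The start regions of the genes were considered first. Of the 8 genes, COL5A1, COL5A3, COL11A1 and COL27A1 were matched in a RefSeq promoter table (GRCh38.p14), and COL1A1, COL1A2, COL3A1 and COL5A2 were not. The 250 bases before the listed start are shown for a type V gene that fell, for the type V gene with the steepest estimate, and for COL27A1, which did not pass the test. They lie at chr9:134641553-134641802 on the plus strand for COL5A1 (the first of 2 starts listed), at chr19:10010505-10010754 on the minus strand for COL5A3, and at chr9:114155287-114155536 on the plus strand for COL27A1. Each is written along the strand of its gene, and capitals mark matches to the GC box GGGCGG or the CCAAT box CCAAT on either strand.
COL5A1: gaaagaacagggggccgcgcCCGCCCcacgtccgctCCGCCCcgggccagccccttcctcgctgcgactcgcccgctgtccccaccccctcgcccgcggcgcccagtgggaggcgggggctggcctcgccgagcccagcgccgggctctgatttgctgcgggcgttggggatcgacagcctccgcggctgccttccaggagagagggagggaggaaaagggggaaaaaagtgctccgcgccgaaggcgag
COL5A3: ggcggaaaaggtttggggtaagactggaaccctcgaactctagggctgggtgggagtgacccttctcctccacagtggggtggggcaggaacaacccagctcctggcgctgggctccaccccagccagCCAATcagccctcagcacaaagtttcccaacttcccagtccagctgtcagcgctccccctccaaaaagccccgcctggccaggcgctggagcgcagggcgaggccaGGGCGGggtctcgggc
COL27A1: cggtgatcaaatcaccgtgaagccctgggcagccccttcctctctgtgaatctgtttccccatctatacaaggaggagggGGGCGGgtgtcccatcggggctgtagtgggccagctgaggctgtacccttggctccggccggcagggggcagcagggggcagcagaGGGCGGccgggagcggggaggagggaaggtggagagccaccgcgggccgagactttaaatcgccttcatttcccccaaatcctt
The window of COL5A1 held 2 GC boxes, both on the opposite strand, and had a GC content of 74%. The window of COL27A1 also held 2 GC boxes, on its own strand, with a GC content of 64.4%. That of COL5A3 held 1 CCAAT box starting 122 bases before the start and 1 GC box starting 16 bases before it, with a GC content of 66%. Over 27305 promoter windows of the same length the median GC content was 58%, and 42.3% held a GC box and 33.0% a CCAAT box. The window of COL11A1, which is not shown, held 3 GC boxes and 1 CCAAT box. Neither the TATA box TATAAA (found in 11.1% of windows) nor the core GGAATG recognised by TEAD factors (11.9%) occurred in the windows of the 4 matched genes. All 4 windows held a GC box, and the part of these motifs in the changes was not tested.

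Among the chains of the main fibrils, COL1A1 (ENSG00000108821.14, hg38 chr17:50184101-50201632, minus strand), which encodes the alpha1 chain of type I collagen, was the most abundant. It ranked 15 among all genes tested by mean CPM. The siControl libraries held 69120, 80831 and 61783 COL1A1 counts and the siOGT libraries 46917, 65203 and 51227. These counts corresponded to 2586, 3175 and 2214 CPM in siControl and to 1737, 2423 and 1911 CPM in siOGT. Pair 2 was highest in both groups, and its siOGT library lay above the siControl library of pair 3, so that the groups overlapped. The siOGT level was 67.2%, 76.3% and 86.3% of that of the siControl partner. The mean was 2658 ± 485 CPM for siControl against 2023 ± 357 CPM for siOGT (SD, n = 3 each), and the log2 fold change was -0.39 (95% confidence interval -0.55 to -0.23, edgeR adjusted p = 0.00111). The call rested on pair 1, without which the log2 fold change was -0.30 (edgeR adjusted p = 0.0893), and on the pairing, without which the adjusted p was 0.224 in edgeR. Over 10 alternative settings the adjusted p of COL1A1 ranged from 5.01e-06 to 0.224.

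COL1A2 (ENSG00000164692.19, chr7:94394895-94431227, plus strand), which encodes the alpha2 chain of type I collagen, fell least among the called genes. Its counts were 11569, 14900 and 11703 in siControl and 7554, 15113 and 9273 in siOGT. The levels were 433, 585 and 419 CPM in siControl and 280, 562 and 346 CPM in siOGT. The siOGT library of pair 2 was thus close to its siControl partner and above the other siControl libraries. The siOGT level was 64.6%, 95.9% and 82.5% of siControl in the pairs. The mean went from 479 ± 92.2 to 396 ± 147 CPM (SD, n = 3 each), with a log2 fold change of -0.32 (95% confidence interval -0.50 to -0.14, edgeR adjusted p = 0.0107). This was the least stable of the calls together with that of COL5A3: the edgeR adjusted p was 0.33 without pair 1 and 0.566 without pairing, and DESeq2 gave 0.165 with pairing. Over 10 alternative settings the log2 fold change of COL1A2 ranged from -0.46 to -0.17.

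COL3A1 (ENSG00000168542.17, chr2:188974373-189012746, plus strand), which encodes the single chain type of type III collagen, was lower in siOGT in every pair. The libraries held 10668, 15437 and 10505 counts in siControl and 5491, 12297 and 6947 in siOGT. This amounted to 399, 606 and 376 CPM in siControl and 203, 457 and 259 CPM in siOGT. As with type I collagen, both libraries of pair 2 stood above the others, and the groups overlapped by that 1 siOGT library. The share of the siControl level that remained was 50.9%, 75.3% and 68.8% in the 3 pairs. The mean fell from 461 ± 127 to 306 ± 133 CPM (SD, n = 3 each), and the log2 fold change was -0.64 (95% confidence interval -0.82 to -0.46, edgeR adjusted p = 5.26e-05). The call of COL3A1 stood without any 1 of the pairs, with estimates from -0.76 to -0.47, and was lost without pairing (edgeR adjusted p = 0.304).

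Of the type V collagen genes, COL5A1 and COL5A2 did not overlap between groups, whereas COL5A3 did. COL5A1 (ENSG00000130635.17, chr9:134641803-134844843, plus strand) encodes its alpha1 chain, which is present in all common type V trimers. The siControl libraries held 11651, 10746 and 11089 COL5A1 counts, or 436, 422 and 397 CPM. The siOGT libraries held 8029, 8092 and 6361 counts, or 297, 301 and 237 CPM. Every siOGT library was below every siControl library, and pair 2 did not stand out. Levels fell to 68.2%, 71.2% and 59.7% in the 3 pairs. The mean went from 418 ± 19.5 to 278 ± 35.7 CPM (SD, n = 3 each), and the estimated log2 fold change was -0.59 (95% confidence interval -0.74 to -0.45, edgeR adjusted p = 1.32e-05). COL5A1 was called under all 10 alternative settings, with log2 fold changes from -0.65 to -0.53 and a highest edgeR adjusted p of 0.0469, reached without pairing. Without pairing, edgeR called 0.397% of all genes tested lower, and COL5A1 was the 1 fibrillar collagen gene of the 8 among them.

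COL5A2 (ENSG00000204262.14, chr2:189031898-189225312, minus strand), which encodes the alpha2 chain of type V collagen, changed by a similar amount. Its counts were 10719, 10530 and 10066 in siControl and 6462, 9213 and 6118 in siOGT. The corresponding levels were 401, 414 and 361 CPM in siControl and 239, 342 and 228 CPM in siOGT. The groups did not overlap, although the siOGT library of pair 2 came near the lowest siControl library. Of the siControl level, 59.7%, 82.8% and 63.3% remained. The mean fell from 392 ± 27.7 to 270 ± 62.9 CPM (SD, n = 3 each), which gave a log2 fold change of -0.56 (95% confidence interval -0.73 to -0.39, edgeR adjusted p = 9.40e-05). This call was lost in edgeR without pairing (adjusted p = 0.112) and was made under the other 9 alternative settings. COL5A1 and COL5A2 were the 2 of 8 genes whose siOGT libraries all lay below all siControl libraries, which was the case for 11.8% of all genes tested.

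COL5A3 (ENSG00000080573.7, chr19:9959561-10010504, minus strand), the gene of the third type V chain, was rare in LX-2 cells. It had 71, 122 and 47 counts in siControl and 35, 81 and 25 in siOGT. In CPM these were 2.66, 4.79 and 1.68 against 1.296, 3.01 and 0.932. Pair 2 was highest and pair 3 lowest in both groups, and the groups overlapped. Within pairs 48.8%, 62.8% and 55.4% of the level remained, and the mean went from 3.04 ± 1.59 to 1.75 ± 1.11 CPM (SD, n = 3 each). The log2 fold change of -0.83 was the largest of the set in size, with the widest interval of the called genes (-1.305 to -0.36, edgeR adjusted p = 0.0114). The edgeR adjusted p was 0.0906 without pair 1 and 0.413 without pairing, and DESeq2 with pairing gave 0.0644.

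The remaining genes were COL27A1 and COL11A1. COL27A1 (ENSG00000196739.15, chr9:114155537-114312511, plus strand) had 469, 410 and 390 counts in siControl and 476, 362 and 391 in siOGT. Its levels were 17.5, 16.1 and 14.0 CPM in siControl and 17.6, 13.5 and 14.6 CPM in siOGT, so that it was lower in 1 pair and slightly higher in the other 2 pairs. The means were 15.9 ± 1.80 and 15.2 ± 2.16 CPM (SD, n = 3 each), and the log2 fold change was -0.06 (edgeR adjusted p = 0.688). The 95% confidence interval, from -0.26 to 0.14, overlapped those of COL1A1 (-0.55 to -0.23) and COL1A2 (-0.50 to -0.14). It did not overlap those of COL3A1 (-0.82 to -0.46), COL5A1 (-0.74 to -0.45), COL5A2 (-0.73 to -0.39) and COL5A3 (-1.305 to -0.36). Whether COL27A1 differed from the called genes was not tested. COL11A1 (ENSG00000060718.22, chr1:102876467-103108872, minus strand) had 0, 2 and 2 counts in siControl and 2, 3 and 1 in siOGT, at which depth a difference was not detectable.

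**Figure D2:**
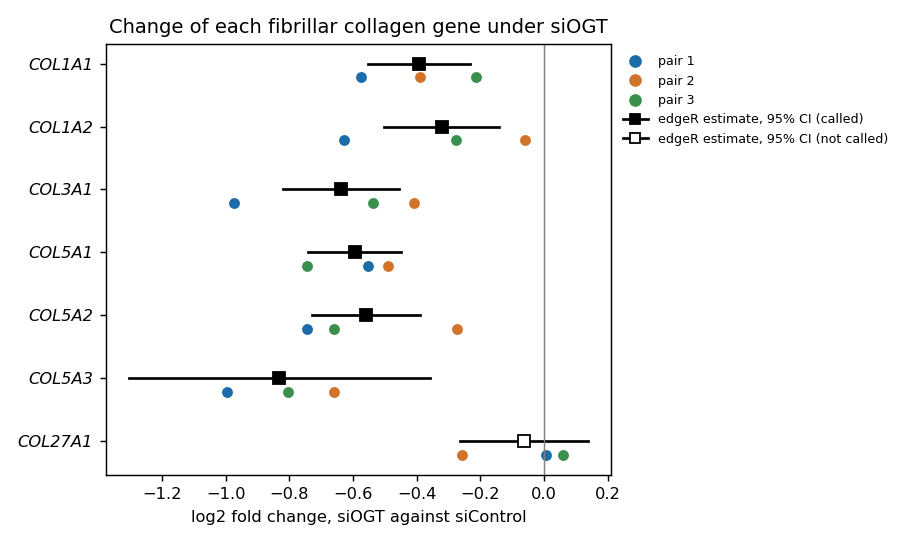
Log2 fold change of siOGT against siControl for 7 of the genes (COL11A1, with 10 counts in all, is left out). Squares with lines are edgeR estimates with 95% confidence intervals, filled where called, and coloured points are the log2 ratios of the 3 pairs. The 6 called genes have all their pairs left of 0, and the pairs of COL27A1 lie from -0.26 to 0.06.

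The spread between pairs differed between the genes. For COL5A1 the group carried 86.4% of the variance of log2 CPM over the 6 libraries and the replicate number 10.7%, and for COL5A2 these shares were 67.5% and 23.4%. For COL1A2 the replicate number carried 71.2% and the group 18.8%, and for COL5A3 the shares were 70.3% and 28.9%. COL1A1 (47.2% group, 46.2% replicate number) and COL3A1 (38.0% and 56.5%) were intermediate. Type V genes other than COL5A3 thus varied mostly with the group, and COL1A2 and COL5A3 mostly with the replicate number.

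**Figure D3:**
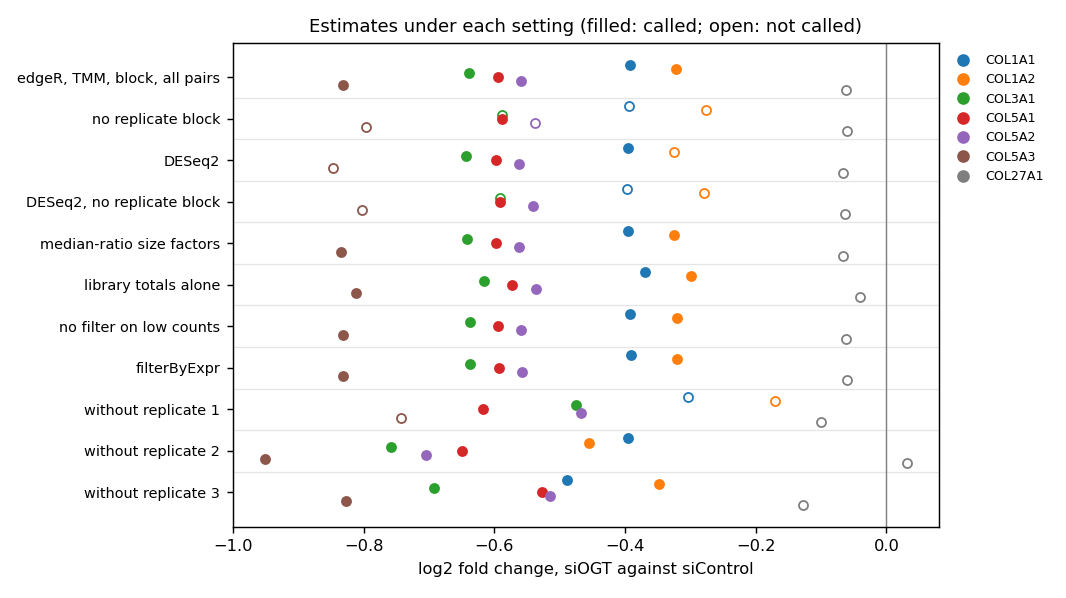
Log2 fold change of 7 of the genes (colours) under the reported settings (top line) and 10 alternatives (other lines), with filled points where the adjusted p was at most 0.05. COL5A1 is filled on every line, and COL1A1, COL1A2 and COL5A3 are open without pairing and without replicate 1, where the COL1A2 estimate moves to -0.17. COL3A1 is also open without pairing, and COL5A2 is open in edgeR without pairing. COL1A2 and COL5A3 are also open in DESeq2 with pairing, and COL27A1 is open on every line.

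To compare the genes with each other, CPM were divided by the length of the main transcript in kilobases. Per kilobase, COL1A1 had 449 ± 82.0 CPM in siControl (SD, n = 3), above COL1A2 (94.5 ± 18.2), COL3A1 (83.9 ± 23.1), COL5A2 (57.4 ± 4.05) and COL5A1 (49.6 ± 2.31). COL27A1 (2.03 ± 0.23), COL5A3 (0.49 ± 0.26) and COL11A1 (0.0068) were far lower. The order was the same in siOGT, where COL1A1 had 342 ± 60.3 CPM per kilobase, followed by COL1A2 (78.0 ± 29.1), COL3A1 (55.8 ± 24.3), COL5A2 (39.5 ± 9.22) and COL5A1 (33.0 ± 4.22). Among neighbours in this order, the siControl libraries overlapped for COL1A2 and COL3A1 only. In siOGT the neighbours from COL1A2 down to COL5A1 overlapped with each other in turn, so that their order was not separated by the spread between libraries.

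The total output of the 8 genes was then determined. Their summed level was 4274, 5224 and 3783 CPM in siControl and 2775, 4101 and 2997 CPM in siOGT. The sum was lower in siOGT in all pairs, with the siOGT library of pair 2 above the siControl library of pair 3. The mean fell from 4427 ± 733 to 3291 ± 710 CPM (SD, n = 3 each), and the log2 ratios of the pairs were -0.62, -0.35 and -0.34. An exact sign-flip permutation test over 3 pairs gave p = 0.25, two-sided, which is the smallest p that this design allows. As a share of all counts in a library, the 8 genes took 0.427%, 0.512% and 0.378% in siControl and 0.283%, 0.405% and 0.305% in siOGT. Type I chains together had a mean log2 ratio of -0.38 ± 0.18 and type V chains one of -0.58 ± 0.17 (SD over 3 pairs). The type V sum was 839, 841 and 760 CPM in siControl and 538, 646 and 466 CPM in siOGT, without overlap.

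Whether the make-up of the collagen output changed was examined by taking each gene as a percent of the summed counts of the 8 genes. These shares are shares of counts, and longer transcripts give more counts. COL1A1 made up 60.5%, 60.8% and 58.5% of the sum in siControl and 62.6%, 59.1% and 63.8% in siOGT, higher in 2 of 3 pairs. The mean difference of 1.88 ± 3.48 percentage points (SD over 3 pairs) was smaller than its spread. The COL1A2 share was 10.1%, 11.2% and 11.1% in siControl and 10.1%, 13.7% and 11.5% in siOGT, with a mean difference of 0.966 ± 1.34 points.

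COL3A1 lost share in all pairs, from 9.34%, 11.6% and 9.95% to 7.32%, 11.1% and 8.65%. The mean difference was -1.26 ± 0.773 points, and the exact permutation test gave p = 0.25, again the smallest possible. With both type I chains left out of the sum, the COL3A1 share was lower in 2 of 3 pairs. The shares of COL5A1 (10.2%, 8.08% and 10.5% against 10.7%, 7.33% and 7.92%) and COL5A2 (9.38%, 7.92% and 9.53% against 8.62%, 8.35% and 7.61%) were lower in 2 of 3 pairs each. Their mean differences, -0.940 ± 1.56 and -0.750 ± 1.17 points, did not exceed the spread between pairs. The COL5A3 share was lower in all pairs, from a mean of 0.0661%, with a difference of -0.0157 ± 0.00249 points. COL27A1, whose own level did not pass the test, took a larger share in all pairs, 0.635%, 0.328% and 0.487% in siOGT against 0.410%, 0.308% and 0.369% in siControl (exact permutation p = 0.25). COL11A1 took at most 0.00272% in any library.

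**Figure D4:**
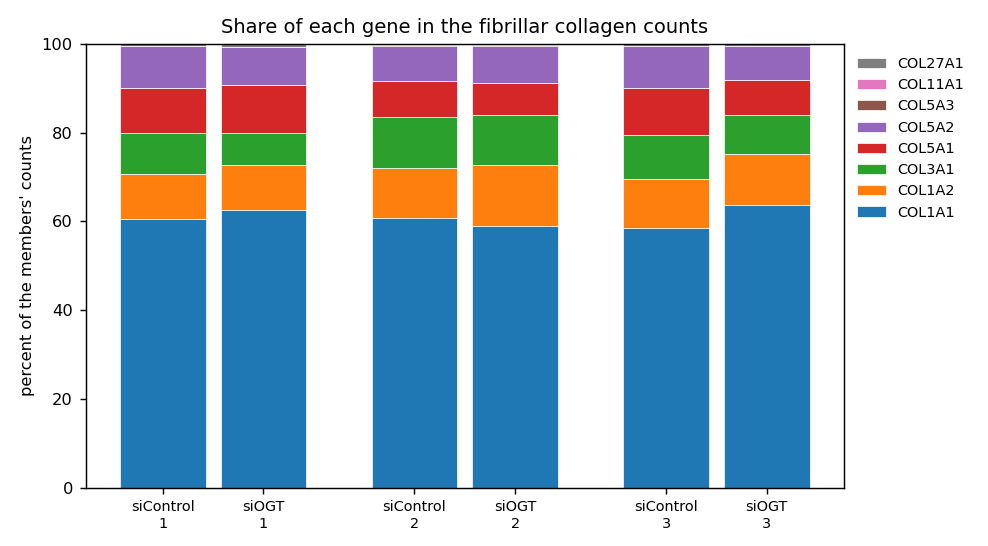
Share of each of the 8 genes in their summed counts, in percent, as stacked bars from 0 to 100 for each library, with the libraries of a pair side by side. COL1A1 forms the largest part of every bar, between 58.5% and 63.8%, and COL3A1 is thinner in siOGT than in its siControl partner in each pair.

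Ratios between chains that share a trimer or a fibril were also compared. The count ratio of COL1A1 to COL1A2 was 5.97, 5.42 and 5.28 in siControl and 6.21, 4.31 and 5.52 in siOGT. It rose slightly in 2 pairs and was lower in pair 2, and the mean log2 difference of -0.07 ± 0.23 (SD over 3 pairs) was within the spread (exact permutation p = 1). Corrected for transcript length, the means were 4.77 ± 0.315 and 4.59 ± 0.824 COL1A1 transcripts for each COL1A2 transcript. The COL5A1 to COL5A2 ratio was 1.09, 1.02 and 1.10 in siControl and 1.24, 0.878 and 1.04 in siOGT, with a mean log2 difference of -0.04 ± 0.21 (exact permutation p = 0.75). Chains of 1 trimer thus showed no difference in ratio beyond the spread between pairs.

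Between fibril types, the ratio of COL3A1 to COL1A1 was 0.154, 0.191 and 0.170 in siControl and 0.117, 0.189 and 0.136 in siOGT. It was lower in all pairs, with log2 differences of -0.40, -0.02 and -0.33 (exact permutation p = 0.25). Pair 2 showed almost no difference. The ratio of COL5A2 to COL1A1 was 0.155, 0.130 and 0.163 in siControl and 0.138, 0.141 and 0.119 in siOGT, a mean log2 difference of -0.17 ± 0.28 that was lower in 2 of 3 pairs (exact permutation p = 0.5).

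COL3A1 and COL5A2 are next to each other on chromosome 2, with their ends facing each other at a distance of 19.151 kb on opposite strands, and both fell. The gene on the other side of COL3A1, GULP1, was called lower with -0.48 on the log2 scale (edgeR adjusted p = 0.00147), and the gene beyond COL5A2, WDR75, was called higher with 0.23 (edgeR adjusted p = 0.0227). RXRA, which precedes COL5A1, was also called lower (-0.24, edgeR adjusted p = 0.0100), as was XYLT2 next to COL1A1 (-0.22, 0.0309). PPP1R9B on the other side of COL1A1 did not pass the test (0.07, edgeR adjusted p = 0.517), nor did BET1 and CASD1, the neighbours of COL1A2 (-0.15 and -0.20, edgeR adjusted p 0.320 and 0.109). Of the neighbours of COL27A1, AKNA had an estimate of -0.10 (edgeR adjusted p = 0.339) and AMBP was nearly unexpressed. S1PR1 and RNPC3, the neighbours of COL11A1, did not pass the test either (0.16 and 0.04, edgeR adjusted p 0.146 and 0.851). FCN1, OLFM2 and ANGPTL6, next to COL5A1 and COL5A3, had means below 0.2 CPM. Neighbours were the nearest tested genes among the 15873 symbols found once in GENCODE 44, so that genes not tested may lie between. The gaps went from 19.151 kb up to 1633 kb (S1PR1). Called neighbours outside the set lay at 144 kb (XYLT2), 201 kb (RXRA), 216 kb (WDR75) and 378 kb (GULP1). For comparison, 25.4% of all genes tested were called in either direction. No tested gene among these symbols overlapped 1 of the 8 genes.

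Genes with the pattern most like COL1A1 and COL3A1 were sought over the 6 libraries by the Pearson correlation of log2 CPM, among 12373 genes averaging 1 CPM or more. The points share libraries, depth scaling and the 2 groups, and the values describe these libraries only. PDGFB (r = 0.997), GRIN1 (0.996) and BCL9 (0.993) were closest to COL1A1, and ALPK1 (0.998), SREBF1 (0.994) and LASP1 (0.993) were closest to COL3A1. Among them, PDGFB (-0.46, edgeR adjusted p = 0.00123), GRIN1 (-1.53, 0.00215) and SREBF1 (-0.69, 5.24e-06) were called lower in siOGT. GRIN1 averaged only 1.31 CPM. As these genes were picked for their likeness to 2 genes that fell, lower calls follow in part from the choice. Of all genes tested, 12.7% were called lower. Within the set, COL1A1 correlated with COL3A1 (0.965), COL5A3 (0.933), COL1A2 (0.902) and COL5A2 (0.901), less with COL5A1 (0.725) and not with COL27A1 (-0.01). Many genes outside the set were closer. By r with COL1A1, COL3A1 ranked 65, COL5A3 236, COL1A2 424, COL5A2 438 and COL5A1 1861 among the 12373 genes. COL3A1 correlated with COL1A2 by 0.974 (rank 71) and with COL5A1 by 0.650 (rank 2553).

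Other collagen genes were counted next, from lists of the pathway. Of the 3 further fibrillar genes, COL11A2, a cartilage chain, had 290, 243 and 236 counts in siControl and 230, 169 and 149 in siOGT. It fell from 9.62 ± 1.20 to 6.78 ± 1.54 CPM (SD, n = 3 each; log2 fold change -0.51, edgeR adjusted p = 0.00422), a call lost without pairing (0.213). COL2A1 and COL24A1 had 1 to 3 counts in a library. Of 21 tested non-fibrillar collagen genes, which form basement membranes, beaded filaments or the surface of fibrils, 13 were called lower and none higher. The median log2 fold change over the list was -0.32, and 12.7% of all genes tested were called lower. COL26A1, singled out after its values were seen because its unadjusted p was below 0.05, had 1, 0 and 0 counts in siControl and 4, 1 and 11 in siOGT (edgeR adjusted p = 0.065). The steepest were COL6A3 (log2 fold change -1.38, edgeR adjusted p = 3.22e-04), a chain of beaded filaments, COL9A2 (-1.02, 2.32e-04), a fibril-associated chain, COL16A1 (-0.95, 2.92e-06), also fibril-associated, COL7A1 (-0.85, 4.06e-06), the chain of anchoring fibrils, and COL18A1 (-0.81, 2.34e-06) of basement membranes. COL16A1 had 600, 525 and 569 counts in siControl and 299, 324 and 261 in siOGT, and it was the 1 gene of this list called by edgeR without pairing (adjusted p = 0.0201).

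Of 19 tested enzymes and chaperones that modify and fold collagen chains, 4 were called lower and 1 higher, a share near the 25.4% called over all genes tested, with a median log2 fold change of -0.08. The prolyl hydroxylase subunit P4HA2 (log2 fold change -0.34, edgeR adjusted p = 0.00303), the lysyl hydroxylase PLOD1 (-0.30, 0.00235), P3H3 (-0.27, 0.0143) and the prolyl isomerase FKBP10 (-0.26, 0.00722) fell, and TMEM38B, an ion channel of the endoplasmic reticulum, rose (0.27, 0.0236). None of the 5 calls was made by edgeR without replicate 1, and those of P3H3 and TMEM38B were also lost without replicate 3 (adjusted p 0.0575 and 0.103). DESeq2 with pairing did not call TMEM38B (adjusted p = 0.0895).

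Of 15 tested genes of procollagen export, trimming and crosslinking, 4 were called lower and 3 higher. The share called in either direction over all genes tested was 25.4%. PCOLCE, which enhances removal of the procollagen C-propeptide, had 942, 1285 and 941 counts in siControl and 424, 659 and 435 in siOGT. All siOGT libraries were below all siControl libraries, and the mean fell from 39.8 ± 9.27 to 18.8 ± 4.93 CPM (SD, n = 3 each; log2 fold change -1.09, edgeR adjusted p = 6.41e-08). The call of PCOLCE was also made without pairing (edgeR adjusted p = 0.0472). The procollagen proteinases that were called moved in both directions, with ADAMTS14 (log2 fold change -0.45, edgeR adjusted p = 0.0259) and TLL1 (-0.43, 0.00147) lower and ADAMTS2 (0.45, 0.00738) higher. DESeq2 with pairing called neither ADAMTS14 (adjusted p = 0.145) nor ADAMTS2 (0.0661). BMP1, named after its values were seen, was the most abundant proteinase at 137 ± 0.548 CPM in siControl (SD, n = 3). It did not pass the test (-0.05, edgeR adjusted p = 0.609). Crosslinking enzymes also moved in both directions, with LOXL4 higher (0.49, edgeR adjusted p = 0.0163) and LOX higher (0.30, 0.00760), and LOXL1 lower (-0.35, 0.00169). DESeq2 with pairing did not call LOXL4 (adjusted p = 0.0933). LOX, LOXL1 and LOXL2 were named after their values were seen. LOX and LOXL1 had 370 ± 120 and 247 ± 39.8 CPM in siControl, against 6.16 ± 1.13 CPM for LOXL4 (SD, n = 3 each). LOXL2, the most abundant of these crosslinking enzymes with 797 ± 58.7 CPM in siControl, did not pass the test (0.18, edgeR adjusted p = 0.0754). In edgeR the call of ADAMTS14 was lost without replicate 1 (adjusted p = 0.065) and without replicate 2 (-0.28, 0.308), and that of LOXL4 without replicate 2 (0.126) and without replicate 3 (0.0942). Without replicate 1 the calls of LOX (edgeR adjusted p = 0.0800) and LOXL1 (0.0709) were lost, and without replicate 2 that of LOX (0.20, 0.104).

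Among 11 tested matrix partners of fibrils, 2 were called lower and 2 higher, while 25.4% of all genes tested were called in either direction. POSTN, the gene of periostin, fell (log2 fold change -1.03, edgeR adjusted p = 1.17e-04), from 105, 373 and 170 counts in siControl to 39, 189 and 100 in siOGT. SPARC, a collagen-binding protein of the matrix, rose from 36761, 41701 and 38656 to 45366, 67127 and 49522 counts (0.44, edgeR adjusted p = 3.67e-04). FN1, the gene of fibronectin, was called lower (-0.28, edgeR adjusted p = 0.0377) but was lower in 2 of 3 pairs only. The FN1 call was lost under 7 of 10 alternative settings, among them DESeq2 with pairing (adjusted p = 0.345), and leaving out replicate 1, 2 or 3 gave -0.20, -0.49 and -0.17 (edgeR adjusted p 0.331, 4.87e-06 and 0.244). TNXB was called higher (0.27, edgeR adjusted p = 0.0156), with the reservation that it has a near-identical copy with which reads may be divided. Its call was lost without replicate 1 (edgeR adjusted p = 0.0731) and without replicate 2 (0.17, 0.182). It was also lost in DESeq2 with pairing (adjusted p = 0.0564).

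Genes of TGF-beta signalling, the main inducer of collagen transcription in stellate cells, and other collagen gene regulators were called in both directions. Of 21 tested, 3 were called lower and 4 higher, with a median log2 fold change of 0.01. Over all genes tested, 25.4% were called in either direction. CTGF fell (log2 fold change -0.63, edgeR adjusted p = 1.01e-05), as did the receptor gene TGFBR1 (-0.30, 0.00372). The inhibitor gene SMAD7 (0.50, edgeR adjusted p = 0.0143) and the transcription factor gene CEBPB (0.48, 2.20e-04) rose. In edgeR, the call of SMAD7 was lost without replicate 1 (0.30, adjusted p = 0.248) and without replicate 3 (0.0517), and that of TGFBR1 without replicate 1 (0.063). DESeq2 with pairing did not call SMAD7 (adjusted p = 0.0812). Of 15 tested collagen receptors and collagenases, 5 were called lower and 1 higher, to be set beside the same 25.4%. The interstitial collagenase gene MMP1, whose product cleaves type I and type III fibrils, rose from 1264, 508 and 1299 to 2743, 866 and 1812 counts (0.78, edgeR adjusted p = 1.17e-05). The integrin gene ITGA1 (-0.59, edgeR adjusted p = 8.01e-05), the collagen uptake receptor gene MRC2 (-0.52, 3.21e-05), the receptor gene DDR1 (-0.29, 0.00382) and the gelatinase gene MMP2 (-0.28, 0.0177) fell. The MMP2 call was lost without replicate 3 (-0.15, edgeR adjusted p = 0.123) and that of DDR1 without replicate 1 (0.0709). Without pairing, edgeR called none of the genes of these lists except PCOLCE and COL16A1.

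**Figure D5:**
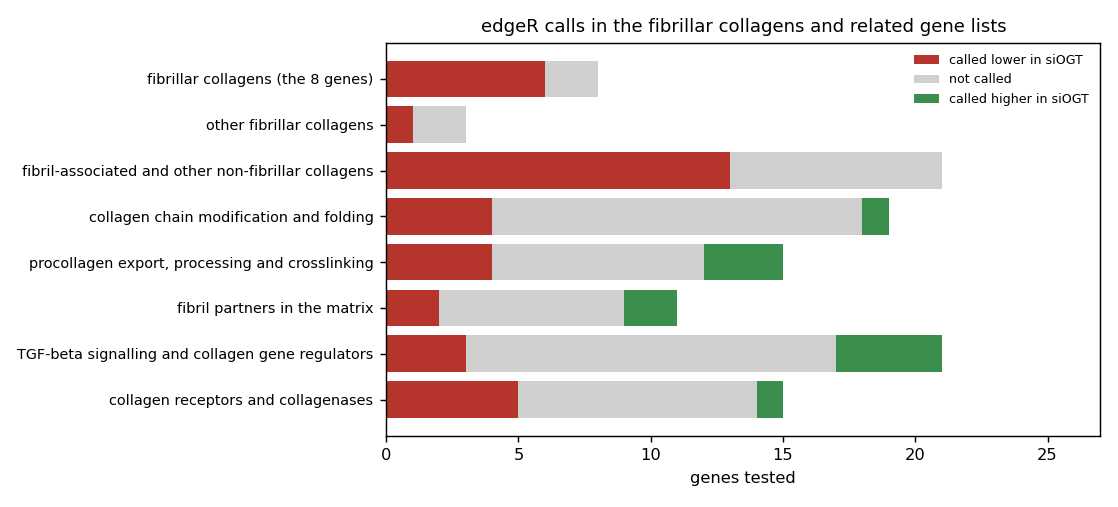
Number of genes tested in the 8 fibrillar collagen genes and in 7 related lists, as stacked bars starting at 0, split into genes called lower in siOGT, not called, and called higher by edgeR with pairing. The bars of the collagen lists hold no gene called higher, while the lists of processing, matrix partners and regulators hold calls in both directions.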

How the data were processed

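RNA of LX-2 cells was sequenced in 3 siControl and 3 siOGT libraries, grouped and numbered as the labels give it. According to the study's methods and processing notes, polyadenylated RNA was sequenced paired-end in stranded libraries, aligned to hg38 with Bowtie2 2.3.5.1 and counted with RSEM 1.3.1. The values deposited by the authors are estimated counts (RSEM's expected counts) per gene symbol, in which reads matching several genes are divided between them. All 48 values of the 8 genes were whole numbers, against 85.8% to 87.7% of all values in a library. Coordinates and transcript lengths are from GENCODE 44, which may differ from the gene models used for counting. A table of the authors' own DESeq2 1.36.0 comparison (fold changes and adjusted p-values) was not used.

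Counts were rounded, 2054 genes with a total below 10 were removed, libraries were scaled by TMM, and edgeR 4.0.16 (R 4.3.3) was used for two-sided quasi-likelihood F tests that included replicate number as a block. Benjamini-Hochberg adjustment was over 14853 genes, and a gene was called at an adjusted p of at most 0.05. Confidence intervals were derived from the F statistic, and log2 ratios within pairs used a prior count of 2. The study's methods pair same-numbered samples, and deviations from the group means correlated between same-numbered libraries by 0.69, 0.53 and 0.33 over 12373 genes. Shares, sums and ratios were tested by exact sign flips over 3 pairs. Alternatives were fits without the block, DESeq2 1.42.0, other scalings and filters, and leaving out each replicate.

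The members and lists were chosen with earlier results of these data known. Named genes were the 8 genes and OGT, the called genes of each list with the largest log2 fold changes (up to 5, mean of at least 1 CPM), the 3 most alike genes, and the neighbours of each gene. 1 gene named by this rule is not reported here. The edgeR script was tested on simulated data.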

Additional observations from a re-analysis of the deposited data

How the results depend on the processing

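Of 10 alternative settings, COL5A1 was called under 10, COL5A2 under 9, COL3A1 under 8, COL1A1 under 7, COL1A2 and COL5A3 under 6, and COL27A1 under none. Pairing mattered most: against 6 of the 8 genes called lower with the replicate block, edgeR called 1 without it, and the DESeq2 count was 4 when blocked and 2 when not. With 1 replicate left out, edgeR called 3 (without replicate 1) to 6. Without the block, edgeR called 0 other fibrillar collagens (1 with it), 1 non-fibrillar collagen (13), 0 folding genes (5), 1 export and processing gene (7), 0 matrix partners (4), 0 regulators (7) and 0 receptors and collagenases (6). DESeq2 without the block called 0, 6, 1, 1, 1, 2 and 2 in the same order. DESeq2 with the block called 4 export and processing genes and 2 matrix partners. Leaving out a replicate gave 0 to 5 folding genes, 4 to 7 export and processing genes, 2 to 4 matrix partners, 3 to 10 regulators, 4 to 6 receptors and collagenases and 10 to 13 non-fibrillar collagens.

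Leaving out 1 replicate moved the estimate of COL27A1 between -0.13 and 0.031, above 0 without replicate 2. The ratio differences of COL1A1 to COL1A2 (-0.14 to 0.061) and COL5A1 to COL5A2 (-0.15 to 0.055) turned positive without replicate 2. With COL1A1 and COL1A2 left out of the total, the shares of COL5A1 and COL5A2 were higher in siOGT by 0.0224 and 0.490 percentage points, and that of COL3A1 was lower in 2 of 3 pairs (mean difference -1.07 ± 3.66 points, exact permutation p = 0.75). The cause of these changes was not tested. Scaling and filters changed no call of the 8 genes. COL11A1, with 10 counts, could not be tested under filterByExpr or without a replicate, and its depth limits any statement about it.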
